A study of Canis lupus familiaris with 15 samples.

Results

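Prostaglandin synthesis and signalling genes were followed in MDCK cells (Madin-Darby canine kidney), a long-established epithelial line from the dog that grows on filters as a sheet with an apical and a basal side. The genes are PTGS2, PTGS1, PTGES, PTGER2, PTGER4 and HPGD. They were taken as every probe set of the array whose platform annotation gives 1 of these symbols, which found 9 probe sets of 6 genes among 42924 probe sets and 15115 annotated genes. The group of genes was chosen by log2 intensities of these same 15 arrays, in which PTGS2 differed between the groups, so the values below are given as a description, with standard errors and the overlap of the arrays, and without p-values.

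All cells stood on Transwell filters for 7 days, and total RNA was hybridised to 15 Affymetrix canine arrays in 4 groups. The Control group (n = 4) received medium only, and the HGF group (n = 4) received hepatocyte growth factor, which activates the receptor MET, at 100 ng/ml for 24 h. The HGF + PD group (n = 4) had 50 uM of PD09859, as the labels spell it, together with HGF, and the HGF + UO group (n = 3) had 10 uM of UO126 together with HGF. The spellings were read as PD98059 and U0126, inhibitors of the kinase MEK that activates ERK. Because the doses differ, the inhibitors stand side by side here and were not tested against each other. None of the 15 arrays came from cells given an inhibitor without HGF, so an inhibitor by itself was not tested. The sources used here name no vehicle.

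Phospholipase A2 enzymes free arachidonic acid from membranes, and the cyclooxygenases PTGS1 and PTGS2 turn it into prostaglandin H2, the common precursor of the prostanoids. PTGES then makes prostaglandin E2, which leaves the cell and acts on receptors such as PTGER2 (EP2) and PTGER4 (EP4), both of which raise cyclic AMP. HPGD oxidises prostaglandin E2 to an inactive product. In the kidney, prostaglandin E2 acts on salt and water transport in the collecting duct, and PTGS2 is known as the inducible cyclooxygenase, whose gene responds to growth factors and whose mRNA is short-lived.

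The values are log2 of the deposited GCRMA intensities, and a probe set counted as measured when it reached 4 on at least 3 of the 15 arrays, which 24904 did. The median intensity of an array lay between 40.4 and 42.6. All 9 kidney epithelium markers were measured (CDH1, EPCAM, KRT8, KRT18, CDH16, PAX8, PAX2, TJP1, OCLN), with a log2 of summed intensity of 16.77 to 16.89 on Control arrays, 16.30 to 16.57 with HGF, 16.29 to 16.62 with HGF + PD and 16.39 to 16.53 with HGF + UO. Single epithelial markers differed in direction, with group means in Control and HGF of 10.77 and 7.77 for CDH16, 9.15 and 7.57 for PAX8, and 9.80 and 10.40 for CDH1. Of the markers of other cells, 2 of 6 for fibroblasts (sums 7.07 to 7.27), 3 of 5 for endothelium (8.70 to 9.02) and 2 of 7 for leukocytes (6.81 to 7.02) were measured. Measured were COL3A1 and PDGFRB for fibroblasts, PECAM1, CDH5 and KDR for endothelium, and CD14 and CD3E for leukocytes. In Control, the brightest of these were CDH5 (mean 8.23) and PECAM1 (7.15). The other listed markers of these cells, among them COL1A1, COL1A2, VWF and PTPRC, were below the filter. The log2 ratio of the 3′ to the 5′ actin probe sets was 2.24 ± 0.05 (SD, n = 4) in Control, 1.48 ± 0.08 (n = 4) with HGF, 2.13 ± 0.07 (n = 4) with HGF + PD and 2.15 ± 0.04 (n = 3) with HGF + UO. The corresponding GAPDH ratio was 2.03 ± 0.04 in Control, 1.95 ± 0.03 with HGF, 1.98 ± 0.07 with HGF + PD and 2.24 ± 0.03 with HGF + UO. Every HGF + UO array (lowest 2.20) was above every array of the other groups (highest 2.08) in this ratio. The part of either ratio in the differences described here was not tested. In RNA from whole cultures, fewer cells of a type and less RNA per cell cannot be told apart.

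PTGS2, the inducible cyclooxygenase, had the widest range of these genes. Its probe set read 6.18, 6.17, 5.76 and 6.16 on the 4 Control arrays. With HGF it read 12.37, 12.17, 12.39 and 12.68. These are median intensities of 71.8 and 5323, and the dimmest HGF array (4594) was far above the brightest Control array (72.5). With HGF + PD the values were 9.03, 8.38, 8.60 and 9.06, and with HGF + UO they were 8.14, 8.31 and 7.31. Both inhibitor groups thus lay between Control and HGF, with no array of either reaching an HGF or a Control array. The HGF level exceeded Control by 6.33 ± 0.21 (SE of the fit), an 80.5-fold difference.

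Against HGF alone, PTGS2 was lower by 12.4-fold in HGF + PD (log2 difference -3.63 ± 0.21) and by 22.3-fold in HGF + UO (-4.48 ± 0.23). It remained above Control in both, by 2.70 ± 0.21 (6.50-fold) in HGF + PD and by 1.85 ± 0.23 (3.62-fold) in HGF + UO. In the order of all 24904 measured probe sets, its HGF difference was the 13th highest, and its differences from HGF were the 87th lowest with HGF + PD and the 41st lowest with HGF + UO. Its differences from Control were the 49th highest with HGF + PD and the 99th highest with HGF + UO. Of the 4 measured members, PTGS2 and PTGER2 had groups that did not overlap in any of the 5 comparisons. Over all measured probe sets, 31.7% to 55.6% did not overlap in a given comparison, and the share for all 5 together was not counted.

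**Figure D1:**
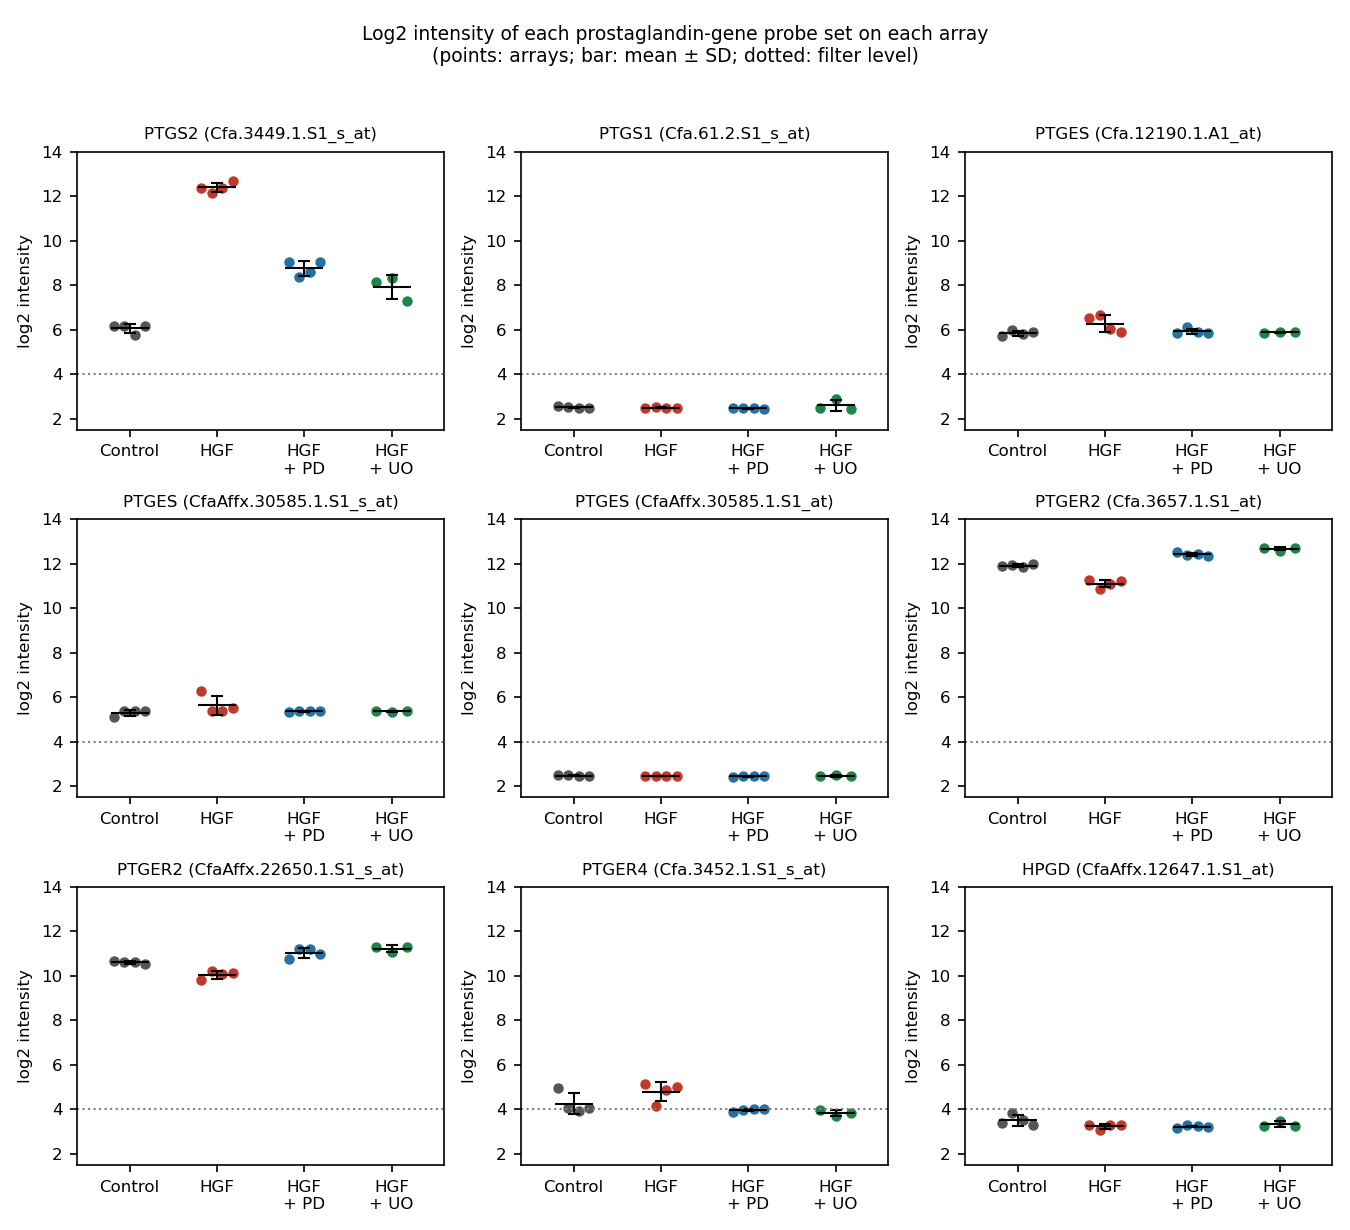
Log2 intensity of the 9 probe sets on each of the 15 arrays, with group means ± SD. Each point is 1 array, and the 4 groups are Control, HGF, HGF + PD and HGF + UO. PTGS2 runs from 5.76 to 12.68 with no overlap between groups, PTGER2 is lowest with HGF, and the probe sets of PTGS1 and HPGD stay under the filter level of 4.

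PTGS1, the cyclooxygenase that many tissues express without stimulation, was below the filter on all 15 arrays, at 2.43 to 2.88. No difference is given for it, because values at this level lie near the bottom of the GCRMA scale. Of the cyclooxygenases, PTGS2 was therefore the measured gene in every group, and a low reading of 1 probe set does not show that PTGS1 RNA was absent.

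PTGES, the inducible prostaglandin E synthase, stayed within a narrow range beside PTGS2. Its brightest probe set read 5.71, 5.98, 5.81 and 5.88 on Control arrays and 6.52, 6.65, 6.04 and 5.89 with HGF. It read 5.87, 6.11, 5.88 and 5.87 with HGF + PD and 5.87, 5.91 and 5.88 with HGF + UO. The first and second HGF arrays stood above every other array, and the fourth lay within the Control range. HGF minus Control was 0.43 ± 0.14, HGF + PD minus HGF was -0.35 ± 0.14 and HGF + UO minus HGF was -0.39 ± 0.15. The inhibitor groups differed from Control by 0.09 ± 0.14 and 0.04 ± 0.15, and arrays overlapped in all 5 comparisons. Without HGF replicate 2 the HGF difference from Control was 0.31 and that of HGF + PD from HGF was -0.22.

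The other PTGES probe sets carried less. The second measured one read 5.10, 5.38, 5.38 and 5.38 in Control and 6.26, 5.38, 5.39 and 5.53 with HGF, and every array of both inhibitor groups lay between 5.35 and 5.38. Its HGF difference of 0.33 ± 0.15 came mainly from HGF replicate 1, without which it was 0.13. The lowest HGF array of this second probe set (5.381) lay just above the highest array of either inhibitor group (5.378). HGF thus overlapped neither inhibitor group on it, but did overlap Control. The remaining PTGES probe set was below the filter on all arrays.

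PTGER2, which encodes the EP2 receptor, was abundant in all groups and lay lowest where PTGS2 was highest. Its brightest probe set read 11.89, 11.93, 11.84 and 11.98 in Control and 11.26, 10.88, 11.09 and 11.22 with HGF. It read 12.53, 12.41, 12.42 and 12.35 with HGF + PD and 12.72, 12.59 and 12.71 with HGF + UO. The HGF arrays were the lowest of all, and every array of both inhibitor groups was above every Control array. The level with HGF was 1.74-fold below Control (log2 difference -0.80 ± 0.07). It was 2.49-fold higher with HGF + PD than with HGF (1.32 ± 0.07) and 2.95-fold higher with HGF + UO (1.56 ± 0.08). Against Control, HGF + PD was higher by 0.52 ± 0.07 and HGF + UO by 0.76 ± 0.08, so that the inhibitor groups lay beyond the Control level and not between Control and HGF.

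The second PTGER2 probe set gave the same order of groups. It read 10.69, 10.63, 10.62 and 10.54 in Control, 9.80, 10.20, 10.08 and 10.11 with HGF, 10.76, 11.19, 11.22 and 10.98 with HGF + PD, and 11.32, 11.05 and 11.32 with HGF + UO. No array of HGF reached a Control array, and no Control array reached an inhibitor array. The differences were -0.57 ± 0.11 for HGF against Control, 0.99 ± 0.11 and 1.18 ± 0.12 for HGF + PD and HGF + UO against HGF, and 0.42 ± 0.11 and 0.61 ± 0.12 for the same groups against Control. Both probe sets share a gene and the same arrays, and are not independent measurements of the cultures.

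PTGER4, which encodes the EP4 receptor, was close to the filter level. Its probe set read 4.95, 4.07, 3.94 and 4.04 in Control and 5.14, 4.15, 4.88 and 5.01 with HGF. It read 3.90, 3.96, 4.03 and 4.01 with HGF + PD and 3.98, 3.69 and 3.82 with HGF + UO. A level of 4 was reached by 3 of 4 Control arrays, 4 of 4 HGF arrays, 2 of 4 HGF + PD arrays and 0 of 3 HGF + UO arrays. The probe set therefore entered the fit mainly through the Control and HGF arrays. HGF overlapped Control (0.55 ± 0.22, and 0.78 without Control replicate 1), while every array of both inhibitor groups was below every HGF array. The differences from HGF were -0.82 ± 0.22 with HGF + PD and -0.97 ± 0.24 with HGF + UO, and those from Control were -0.28 ± 0.22 and -0.42 ± 0.24.

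HPGD, the dehydrogenase that inactivates prostaglandin E2, was below the filter on all 15 arrays, at 3.09 to 3.83. The highest of these values, 3.83, was a Control array. No difference is given at this level.

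**Figure D2:**
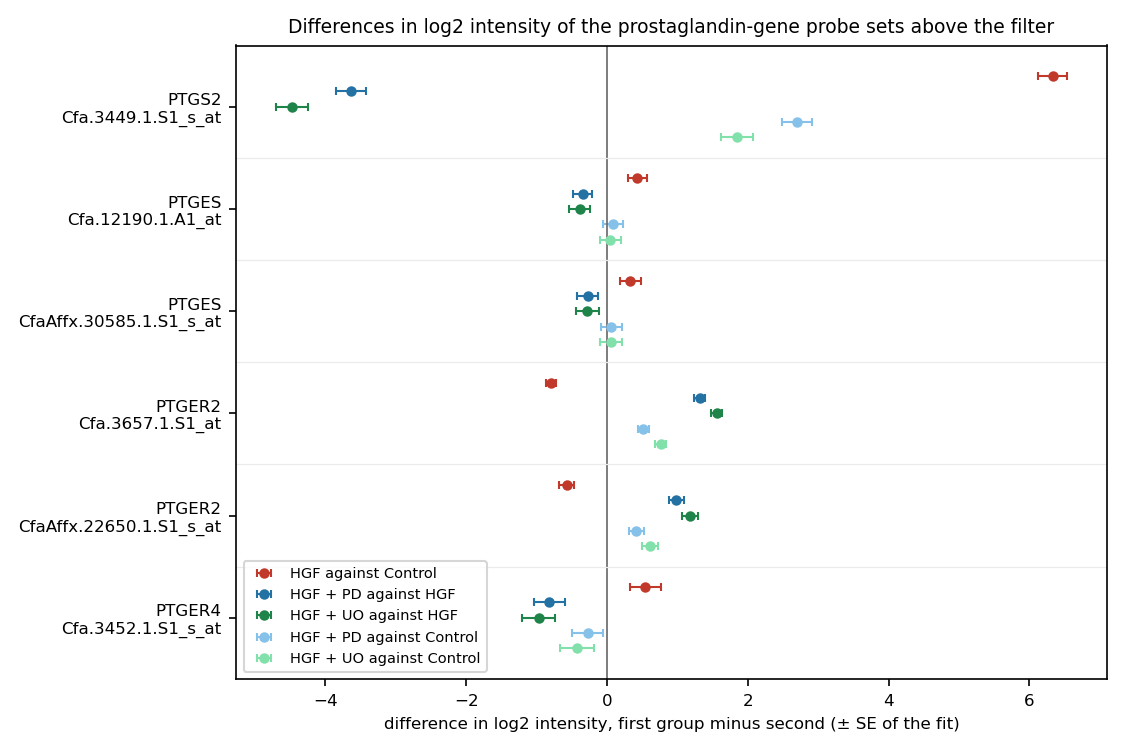
Differences in log2 intensity (first group minus second, with the standard error of the fit) of the 6 measured probe sets in the 5 comparisons. PTGS2 is at 6.33 for HGF against Control and at -3.63 and -4.48 for the inhibitor groups against HGF, whereas PTGER2 is at -0.80, 1.32 and 1.56 on its brightest probe set.

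Across the 9 probe sets, 6 of 4 genes were measured and 3 were not, which includes the only probe sets of PTGS1 and HPGD. The limma threshold (adjusted p under 0.05) was passed by 3 of the 6 upwards and 2 downwards for HGF against Control, where it was passed by 55.6% of all measured probe sets. It was passed by 2 upwards and 3 downwards for HGF + PD against HGF (background 55.4%), and by the same numbers for HGF + UO against HGF (52.4%). Against Control, 3 were higher and 0 lower with HGF + PD (34.4%) and likewise with HGF + UO (22.3%), and these were the probe sets of PTGS2 and PTGER2. Arrays did not overlap for 3, 5, 5, 3 and 3 of the 6 in this order of comparisons, against 51.7%, 55.6%, 54.0%, 39.5% and 31.7% of all measured probe sets. The PTGS2 and PTGER2 calls held with any 1 array left out, while the HGF call of PTGES was lost without HGF replicate 1 or 2 and that of PTGER4 without Control replicate 2, 3 or 4 or HGF replicate 1, 3 or 4. The PTGES calls against HGF were lost in 5 of 8 fits that left out 1 array for HGF + PD (HGF replicate 1 or 2, or HGF + PD replicate 1, 3 or 4) and in 5 of 7 for HGF + UO (HGF replicate 1 or 2, or any HGF + UO array). Without HGF replicate 2 these differences were -0.22 and -0.26. Since these comparisons chose the genes, the counts and the calls that held are given without a reading.

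The genes around these 6 in the pathway were taken from 8 lists with 140 genes, of which 122 were annotated on the array and 80 passed the filter, each taken at its brightest probe set. These genes were tested in the fit across all probe sets. For HGF against Control, 25 rose and 22 fell (58.8% of those measured), against 28.0% up and 27.7% down over all 10287 measured genes. Against HGF, 18 rose and 24 fell with HGF + PD (52.5%; over all genes 29.9% up and 25.8% down), and 18 rose and 27 fell with HGF + UO (56.2%; over all genes 26.2% up and 26.3% down). Against Control, 14 rose and 18 fell with HGF + PD (40.0%; over all genes 21.8% and 13.5%), and 9 rose and 13 fell with HGF + UO (27.5%; over all genes 13.8% and 10.3%). Taken over both directions, the shares called are close to those of all genes, whose median differences were between -0.016 and -0.0026. By direction they differ: against Control, more genes of the lists fell than rose in both inhibitor groups. Over all genes, more rose than fell there. HGF against Control, HGF + PD against HGF and HGF + UO against HGF use the same HGF arrays, and their values are set side by side without a test of likeness.

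Among 12 measured genes of arachidonate release and re-uptake, 5 rose and 4 fell with HGF (list median -0.027). The largest rise was in PLA2G4A, the cytosolic phospholipase A2 that frees arachidonic acid for the cyclooxygenases, from 11.22 ± 0.05 (SD, n = 4) to 12.79 ± 0.04 (n = 4). This was a difference of 1.57 ± 0.05 (adjusted p = 1.19e-11), and its other probe set gave 1.83. PLA2G4A fell against HGF by 1.36 ± 0.05 with HGF + PD (adjusted p = 5.13e-11) and by 1.78 ± 0.06 with HGF + UO (adjusted p = 9.68e-12). It came back near Control, at 0.21 above it with HGF + PD (adjusted p = 0.00847, and 0.0534 after quantile normalization) and at 0.21 below it with HGF + UO (log2 difference -0.21, adjusted p = 0.0192, and 0.0554, 0.0671 and 0.103 without Control replicate 3, HGF + UO replicate 2 or HGF + UO replicate 3). PLA2G4A is also the next protein-coding gene beside PTGS2 in the dog assembly UU_Cfam_GSD_1.0. The one on the other side, PDC, was below the filter.

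LPCAT3, which puts arachidonate back into phospholipids, rose with HGF by 0.62 ± 0.05 and PLA2G15, a lysosomal phospholipase, by 0.60 ± 0.09. Neither returned to Control with an inhibitor, since LPCAT3 was above Control by 0.96 with HGF + PD and 0.60 with HGF + UO, and PLA2G15 by 0.94 and 0.49 (all past the threshold). ABHD12 and FAAH, hydrolases of lipids that carry arachidonate, fell with HGF by 0.60 ± 0.11 and 0.38 ± 0.11. They rose against HGF by 0.45 and 0.40 with HGF + PD and by 0.42 and 0.53 with HGF + UO, with the ABHD12 value in HGF + UO at an adjusted p of 0.0506 and 0.0502 without HGF + UO replicate 1 or replicate 3. ACSL4, which activates arachidonic acid as its CoA ester, fell with HGF by 0.35 ± 0.06 and was lower still with the inhibitors, by 0.72 ± 0.06 below Control with HGF + PD (log2 difference -0.72) and by 1.15 ± 0.06 with HGF + UO (log2 difference -1.15, adjusted p = 2.66e-08).

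Of the other prostanoid synthases, 5 of 11 were measured, and 1 rose and 3 fell with HGF (list median -0.27). The gene that rose was AKR1B1, an aldose reductase that also makes prostaglandin F2 alpha, by 1.89 ± 0.07 (adjusted p = 1.27e-11). It fell against HGF by 1.03 ± 0.07 with HGF + PD and by 1.47 ± 0.07 with HGF + UO, and stayed above Control by 0.86 and 0.41. PTGES2, the membrane-associated prostaglandin E synthase, fell with HGF by 0.71 ± 0.08 (adjusted p = 1.33e-06) and rose against HGF by 0.82 with HGF + PD and 0.54 with HGF + UO. PTGES3, the cytosolic one and a partner of HSP90, fell by 0.27 ± 0.06 (adjusted p = 0.00141) and rose against HGF by 0.44 and 0.49. TBXAS1, the thromboxane synthase, fell with HGF by 0.97 ± 0.13 (adjusted p = 1.68e-05) and did not pass the threshold against HGF with either inhibitor (differences of -0.11 and 0.07). PTGDS, a prostaglandin D synthase, was measured at 5.17 with HGF and passed the threshold in none of the 5 comparisons, and PTGIS and HPGDS, the prostacyclin and the other prostaglandin D synthase, were below the filter.

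**Figure D3:**
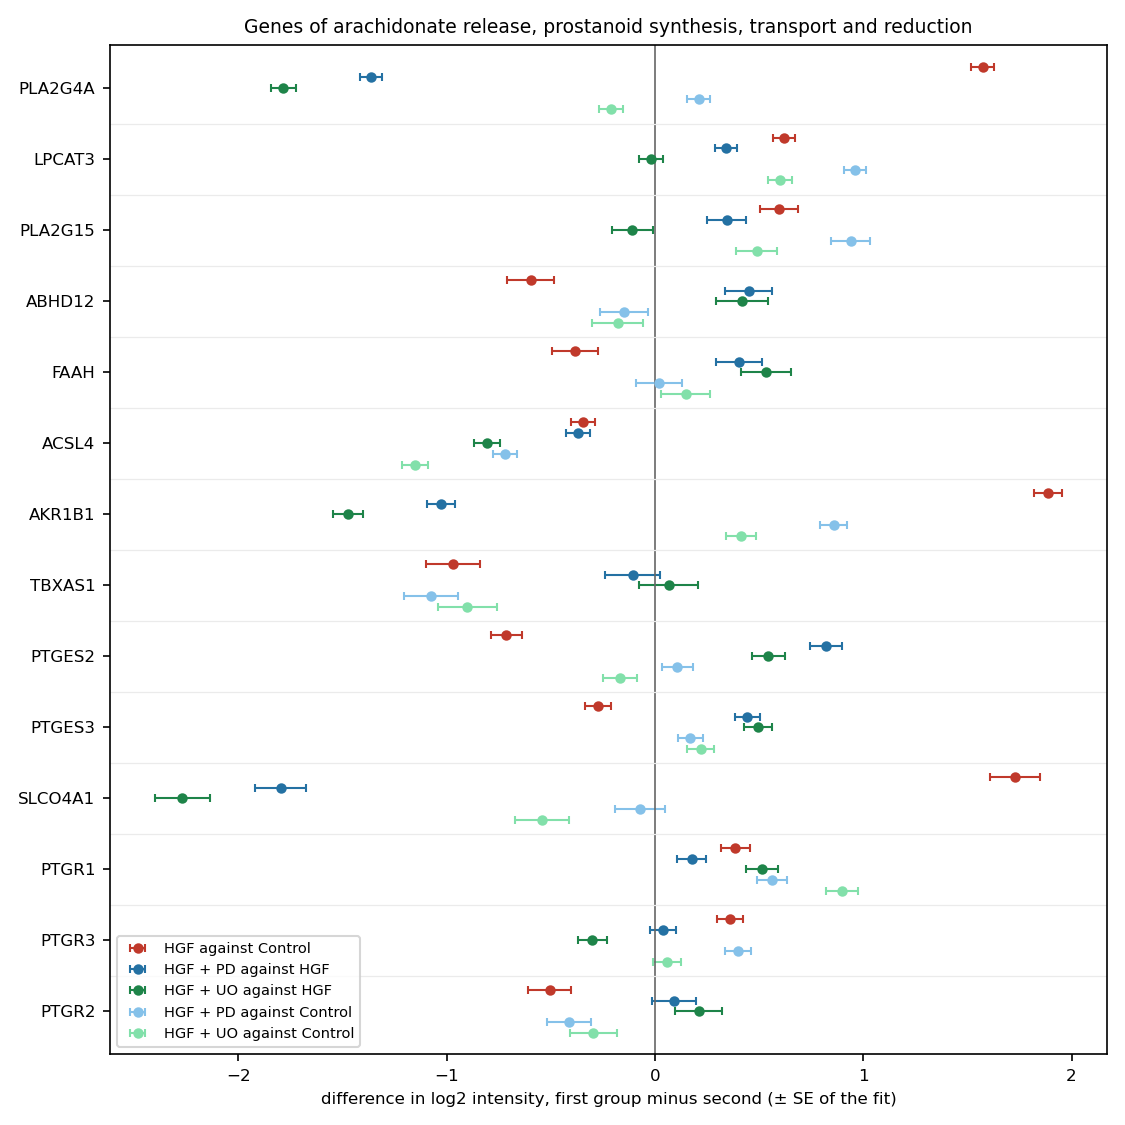
Differences in log2 intensity, with standard errors of the fit, of the named genes of arachidonate release, prostanoid synthesis, transport and reduction. PLA2G4A (1.57), AKR1B1 (1.89) and SLCO4A1 (1.73) are the highest for HGF against Control and TBXAS1 (-0.97) the lowest.

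Of 7 other prostanoid receptors, only PTGER1 (EP1) was measured, with a difference of 0.01 ± 0.05 for HGF against Control (adjusted p = 0.896). It passed the threshold in none of the 5 comparisons. PTGER3, PTGDR, PTGDR2, PTGFR, PTGIR and TBXA2R were below the filter. Of the prostanoid receptors PTGER2, PTGER4 and PTGER1 were thus measured, and their levels are not ranked, since probe sets differ in brightness for the same amount of RNA.

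Among genes of prostaglandin transport and reduction, 5 of 7 were measured, and 3 rose and 1 fell with HGF (list median 0.36). SLCO4A1, an organic anion transporter that carries prostaglandins among other substrates, rose by 1.73 ± 0.12 (adjusted p = 1.64e-08) and fell against HGF by 1.80 ± 0.12 with HGF + PD and 2.27 ± 0.13 with HGF + UO. The prostaglandin transporter SLCO2A1 was below the filter, and ABCC4, an exporter of prostaglandin E2, differed by 0.07 ± 0.14 with HGF (adjusted p = 0.714). PTGR1, a reductase of oxidised prostaglandins, rose with HGF by 0.39 ± 0.07 and stood above Control by 0.56 with HGF + PD and by 0.90 ± 0.08 with HGF + UO (adjusted p = 1.27e-06). PTGR3, a related reductase (listed under its older symbol ZADH2), rose by 0.36 ± 0.06, and PTGR2, another, fell by 0.51 ± 0.10.

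The lipoxygenase and epoxygenase branches draw on the same arachidonic acid. Of 21 genes, 9 were measured, and 1 rose and 4 fell with HGF (list median -0.16), while 4 rose against HGF with each inhibitor. GGT1, the gamma-glutamyl transferase that trims leukotriene C4 and glutathione at the apical surface, fell with HGF by 2.19 ± 0.09 (adjusted p = 7.38e-11) and rose against HGF by 1.65 ± 0.09 with HGF + PD and 1.76 ± 0.10 with HGF + UO. EPHX1, an epoxide hydrolase, fell by 1.37 ± 0.08 (adjusted p = 2.95e-09) and rose against HGF by 1.67 ± 0.08 and 1.63 ± 0.09. LTA4H, which makes leukotriene B4, fell by 0.33 ± 0.05, and ALOX15B, a lipoxygenase, rose by 0.63 ± 0.14 (adjusted p = 0.00169). ALOX5 and ALOX15 were below the filter.

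Downstream of EP2 and EP4, 17 of 30 genes of cyclic AMP signalling were measured, and 2 rose and 4 fell with HGF while 11 did not pass the threshold (list median -0.049). The largest change was in PRKAR2B, a regulatory subunit of protein kinase A, which fell from 7.78 ± 0.34 (SD, n = 4) in Control to 5.89 ± 0.46 (n = 4) with HGF. The difference was -1.89 ± 0.20 (adjusted p = 1.13e-06), and -3.11 on its other probe set. PRKAR2B rose against HGF by 3.69 ± 0.20 (12.9-fold) with HGF + PD and by 3.66 ± 0.21 (12.6-fold) with HGF + UO, and so stood above Control by 1.80 and 1.77. It shares with PTGER2 the order of levels, with HGF lowest and both inhibitor groups above Control. CREM, a factor that binds cyclic AMP response elements, fell with HGF by 0.68 ± 0.09 and rose against it by 0.84 with HGF + PD and 0.61 with HGF + UO. ATF1, another such factor, rose with HGF by 1.16 ± 0.12 (adjusted p = 9.49e-07) and fell against it by 0.94 and 1.22.

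In the same list, PRKAR1A, another regulatory subunit, rose by 0.31 ± 0.09 on its brightest probe set (adjusted p = 0.0119) but had a difference of -0.32 on its other probe set, so its direction is not settled. CRTC2, a coactivator of CREB, fell by 0.25 ± 0.09 on its brightest probe set (adjusted p = 0.0228). Its other probe set differed by -0.028 (adjusted p = 0.584). The brightest missed the threshold without Control replicate 2 (log2 difference -0.20), Control replicate 3 (-0.23), HGF replicate 1 (-0.21) or HGF replicate 2 (-0.22). GNAS, the stimulatory G protein that couples EP2 and EP4, differed by -0.19 ± 0.09 with HGF on its brightest probe set (adjusted p = 0.0982). Of its 3 other probe sets, 2 passed the threshold downwards (-0.25, adjusted p = 0.00307, and -0.34, adjusted p = 0.0238) and 1 did not pass (0.15, adjusted p = 0.35). CREB1, a factor activated by protein kinase A, differed by 0.12 ± 0.09 (adjusted p = 0.298).

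Of the transcription factors known to act on the PTGS2 gene, 23 of 30 were measured, and 10 rose and 4 fell with HGF (list median 0.25). Over all genes, 28.0% rose and 27.7% fell in that comparison. Against HGF, 2 rose and 13 fell with HGF + PD (median -0.55), and 2 rose and 14 fell with HGF + UO (median -0.65), where 25.8% and 26.3% of all genes fell. Against Control, 1 rose and 8 fell with HGF + PD and 0 rose and 6 fell with HGF + UO (medians -0.093 and -0.13), while 14 and 17 did not pass the threshold. Over all genes, 13.5% fell against Control with HGF + PD and 10.3% with HGF + UO. The list was drawn up with results of these arrays known, so its counts are given without a reading.

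FOSL1, an AP-1 subunit, passed the filter only through the HGF arrays, at 5.04 ± 1.58 (SD, n = 4). Its means of 2.26 in Control, 2.25 with HGF + PD and 2.24 with HGF + UO lie near the bottom of the GCRMA scale, so no difference or p-value is given for it, although it is among the genes counted above. NR3C1, the glucocorticoid receptor, which represses PTGS2, rose by 2.16 ± 0.16 (adjusted p = 2.65e-08) and fell against HGF with HGF + PD (log2 difference -2.90 ± 0.16) and with HGF + UO (-2.56 ± 0.17). PPARG, a nuclear receptor for prostaglandin derivatives, rose by 1.33 ± 0.06 (adjusted p = 1.16e-10) and fell against HGF by 0.92 and 1.26. NR3C1 and PPARG had the direction of PTGS2 in the HGF comparison and in both comparisons with HGF. The same held for NFKB2, JUN, JUNB, FOS, FOSL2, ATF3 and SP1 on their brightest probe sets, each past the threshold in all of these comparisons.

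EGR1, an immediate early factor, went a different way. It fell with HGF at 24 h by 1.31 ± 0.24 (adjusted p = 0.00033) and fell further against HGF, with log2 differences of -2.79 ± 0.24 for HGF + PD and -2.14 ± 0.26 for HGF + UO. Its distance below Control was 17.2-fold with HGF + PD (log2 difference -4.10) and 10.9-fold with HGF + UO (log2 difference -3.45). REL, a subunit of NF-kappa-B, and USF1, an E-box factor, fell with HGF by 0.57 ± 0.12 and 0.43 ± 0.05. Both rose against HGF, REL by 0.72 and 0.66 and USF1 by 0.51 and 0.41. NFKB1, the p50 precursor of NF-kappa-B, differed by -0.08 ± 0.09 with HGF (adjusted p = 0.494), and no probe set was annotated to CEBPB.

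Of the genes that act on the stability or translation of PTGS2 mRNA, 8 of 12 were measured, with 3 up and 2 down with HGF (list median 0.017). ZFP36 (tristetraprolin), which speeds the decay of AU-rich mRNAs, rose by 1.01 ± 0.12 (adjusted p = 4.67e-06) and fell against HGF by 1.49 ± 0.12 with HGF + PD and 1.28 ± 0.13 with HGF + UO. TIAL1, a translational repressor, rose by 0.82 ± 0.07 and fell against HGF by 0.70 and 0.88. MAPKAPK2, the kinase that inactivates tristetraprolin, rose by 0.69 ± 0.21 (adjusted p = 0.0132) and fell against HGF by 0.95 and 0.86. ZFP36L1, a relative of ZFP36, fell by 0.68 ± 0.12, and TIA1, a relative of TIAL1, by 0.61 ± 0.16 (adjusted p = 0.00532). ELAVL1, the stabilising protein HuR, had no annotated probe set.

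**Figure D4:**
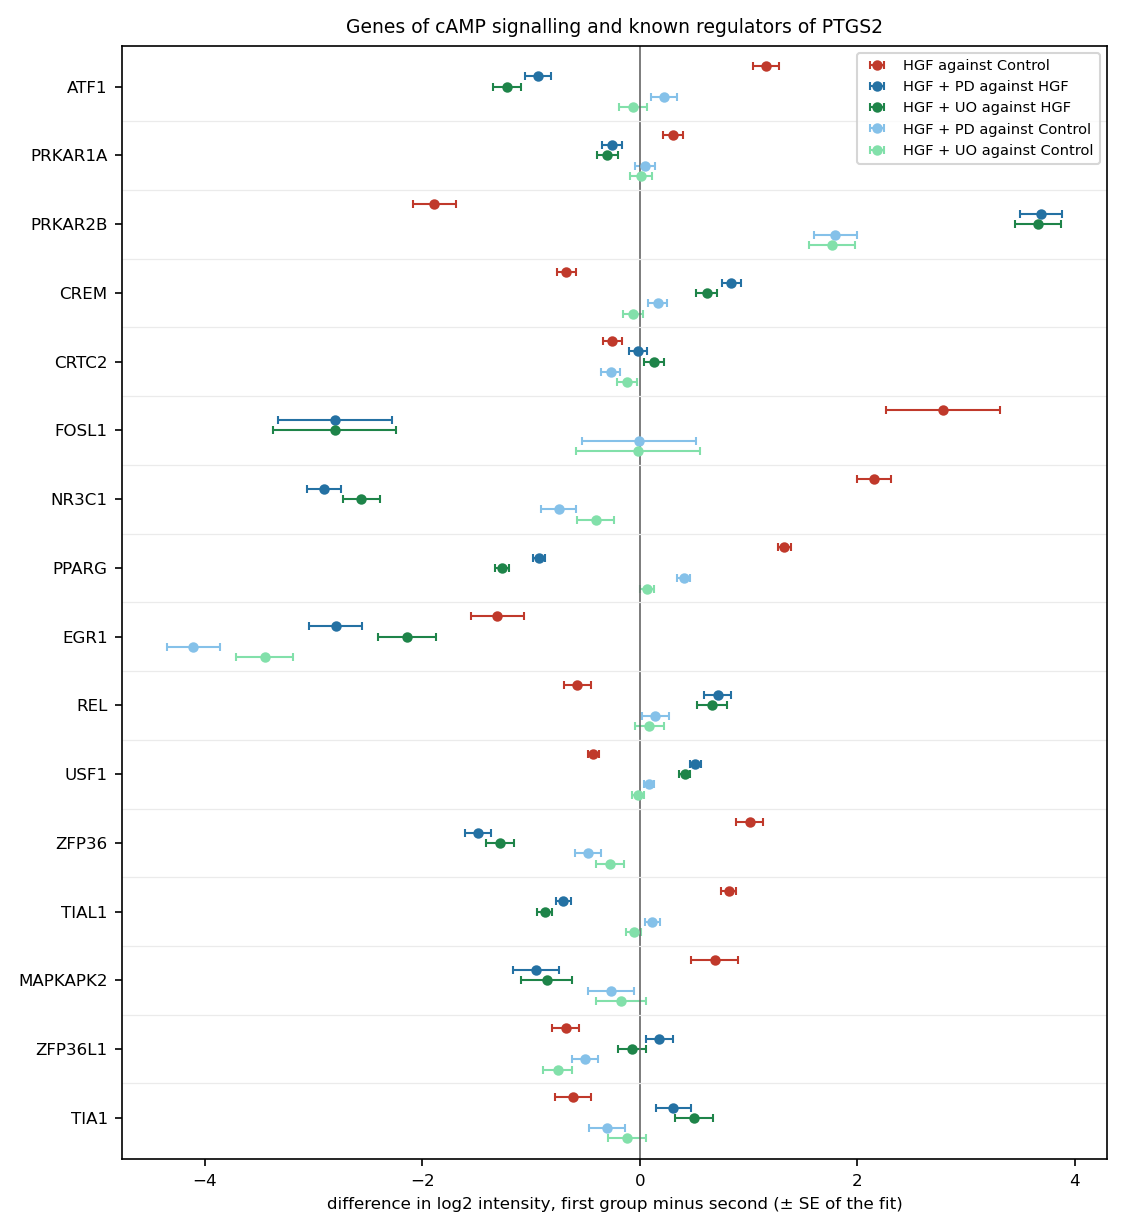
Differences in log2 intensity, with standard errors of the fit, of the named genes of cyclic AMP signalling and of the regulators of PTGS2 transcription and mRNA. PRKAR2B is at -1.89 for HGF against Control and at 3.69 and 3.66 for the inhibitor groups against HGF, and EGR1 lies below 0 in all 5 comparisons. The points of FOSL1 rest on values near the bottom of the GCRMA scale in every group but HGF.

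The other genomic neighbours of the measured members did not share one pattern. Beside PTGES, PRRX2, a homeobox gene, rose with HGF by 1.95 ± 0.14 (adjusted p = 1.81e-08) and fell against HGF by 1.85 and 2.26, whereas TOR1B on the other side differed by 0.01 ± 0.07 (adjusted p = 0.898). TXNDC16 beside PTGER2 differed by 0.01 ± 0.13 with HGF (adjusted p = 0.98), and PTGDR on its other side was below the filter. Beside PTGER4, TTC33 differed by 0.02 ± 0.06 (adjusted p = 0.796) and DAB2 fell by 0.30 ± 0.12 (adjusted p = 0.0436).

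The genes whose log2 intensities ran most like each member over the 15 arrays were listed by Pearson's r among 10283 other genes. This is a description, since the 15 arrays fall into 4 groups and all genes share the same arrays. For PTGS2 the 8 highest were GUCY1B1 (r = 0.995), FABP3 (0.991), SERPINE2, TMEFF2, SHMT2, RRAS and MANF (0.989 each) and MTHFD2 (0.988). Each had Control lowest, HGF highest and the inhibitor groups between. FABP3, a fatty acid binding protein, had group means of 7.44 ± 0.24 (SD, n = 4), 12.99 ± 0.13 (n = 4), 10.13 ± 0.30 (n = 4) and 9.47 ± 0.23 (n = 3) in Control, HGF, HGF + PD and HGF + UO. SERPINE2, a protease inhibitor, had 7.20 ± 0.26, 12.94 ± 0.09, 9.08 ± 0.07 and 8.73 ± 0.13 in the same order.

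For PTGER2 the 5 highest were FTL (0.991), COX17 (0.988), ERH and ADK (0.982 each) and SFT2D1 (0.980). FTL, the ferritin light chain, had means of 14.30 ± 0.05, 13.87 ± 0.07, 14.51 ± 0.04 and 14.68 ± 0.05, so that its range was narrower than that of PTGER2. COX17, a copper chaperone of cytochrome c oxidase, had 10.09 ± 0.15, 9.30 ± 0.25, 10.55 ± 0.05 and 10.81 ± 0.09. The values of r were lower for the dim members. PTGES ran most like BGN (0.942), ARSL (0.939), C5H11orf71 (0.916), TFF1 (0.906) and HTR1A (0.897), and PTGER4 most like MDGA1 (0.916), LOC479185 (0.910), RBSN (0.908), SHC2 (0.899) and NQO2 (0.874). BGN, a proteoglycan, spread over the HGF arrays with an SD of 0.52, against an SD of 0.01 in Control.

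**Figure D5:**
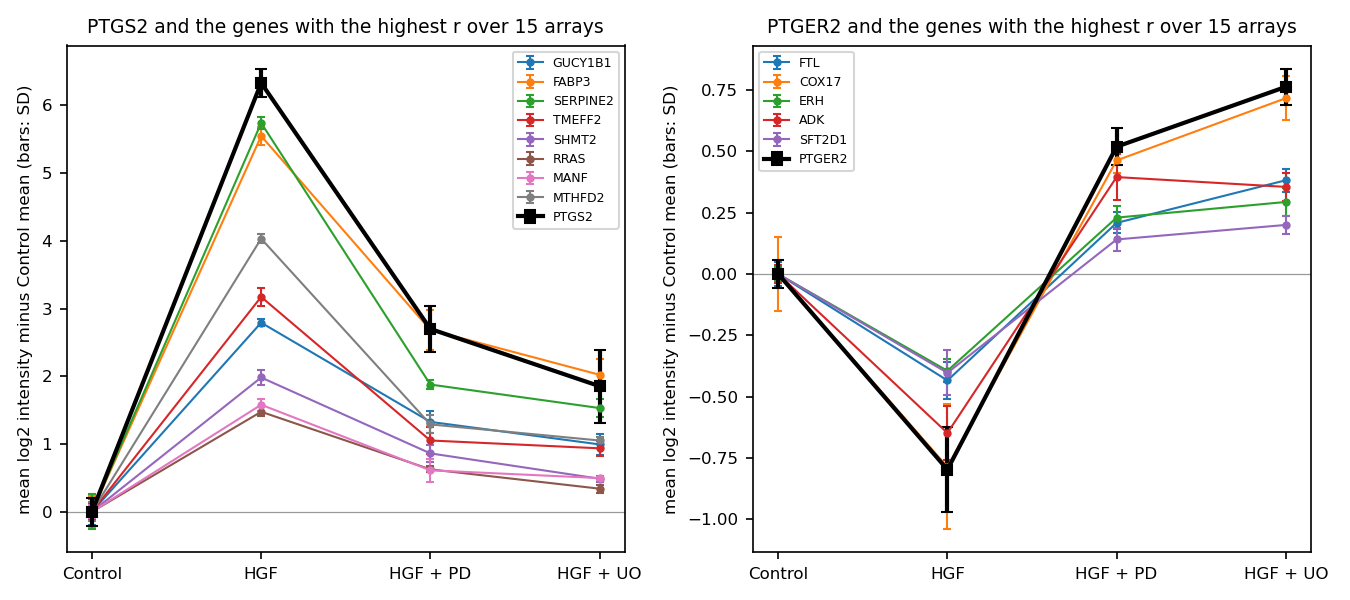
Group means of log2 intensity minus the Control mean, with SD, for PTGS2 and PTGER2 and the genes most like each over the 15 arrays. PTGS2 and its nearest genes peak with HGF, and PTGER2 and its nearest genes have their lowest mean with HGF and their highest means with the inhibitors.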

How the data were processed

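Total RNA from 15 MDCK cultures was measured on Affymetrix canine arrays. The deposited values are linear probe set intensities that the authors summarised with GCRMA, per the submitters' processing notes, with no version stated in the labels. GCRMA pulls dim probe sets towards a floor, which limits differences near it. Log2 was taken of the deposited intensities without further scaling. The 111 control probe sets were left out, and probe sets at 4 or more on at least 3 of 15 arrays were kept (24904 of 42924). Depth does not apply to arrays, and their number limits the precision.

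Differences were fitted with limma 3.58.1 in R 4.3.3 (lmFit, then eBayes with a variance trend), with 1 mean per group over all 15 arrays. P-values were adjusted by Benjamini-Hochberg over all kept probe sets, with a threshold of 0.05, and errors marked SE are those of this fit. The procedure was tested on simulated data. Genes were named from the platform annotation, by the brightest kept probe set. The 439 probe sets that list several symbols stayed unnamed. Groups came from the sample titles. Arrays are labelled as biological replicates, but nothing says whether the cultures were separate, so p-values cover only the spread among these 15 arrays, which may be technical. No 2 arrays were near-identical.

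The genes and lists were chosen with earlier results of these data known. From each list, the 3 genes with the largest rise and the 3 with the deepest fall past the threshold for HGF against Control were named. Other genes of the lists, the genomic neighbours and those below the filter were named after their values were seen. For likeness, the 8 highest r were taken for PTGS2 and the 5 highest for each other measured member. Neighbours, the next protein-coding gene on each side, came from UU_Cfam_GSD_1.0, used for names only.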

Additional observations from a re-analysis of the deposited data

Results flagged for a closer look

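In groups of 4 arrays, an array was listed when its gap to the nearest other array, divided by the range of the group, was above 0.829. This was tested in 129 groups and met in 8, where chance alone gives about 1 in 20.

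Of the prostaglandin genes, PTGS2 had Control replicate 3 low, at 5.76 against 6.16 to 6.18 (gap over range 0.958). PTGES had HGF + PD replicate 2 high on its brightest probe set, at 6.11 against 5.87 to 5.88 (0.944), and Control replicate 1 low on the other, at 5.10 against 5.38 on the remaining arrays (0.968). PTGER4 had Control replicate 1 high, at 4.95 against 3.94 to 4.07 (0.869). HPGD, below the filter, had HGF replicate 2 low, at 3.09 against 3.28 (0.986). For PTGER4, the HGF difference from Control was 0.55, and 0.78 without Control replicate 1.

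Of the pathway genes, PTGES2 had HGF replicate 2 low, at 8.09 against 8.25 to 8.27 (0.895). SLCO4A1 had Control replicate 4 high, at 7.26 against 7.24 (gap over range 1), where the remaining 3 arrays were tied. ALOX15B had HGF + PD replicate 1 high, at 8.03 against 7.45 to 7.51 (0.888).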

How the results depend on the processing

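PTGS2 kept its direction and its side of the threshold under every alternative run. Its gene group was chosen on these same arrays, so this is a description and no independent support. For HGF against Control it ranged from 6.03 to 6.36, and from 6.23 to 6.41 when 1 array was left out, and for HGF + UO against Control from 1.66 to 2.16 when 1 array was left out. PTGER2 also kept its calls. For HGF against Control, PTGES was 0.31 to 0.35 without HGF replicate 1 or 2, and PTGER4 0.43 to 0.52 without Control replicate 2, 3 or 4 or HGF replicate 1, 3 or 4, in each case not called. With only the 2 groups fitted, both calls were lost too, as were the PTGES calls against HGF. Without any filter, the PTGER4 call and the PTGES calls against HGF were lost. The PTGER4 call was also lost without the variance trend. These PTGES calls are those of its brightest probe set. For HGF against Control, its second measured probe set was not called in the main fit (0.33). That probe set was called higher without HGF replicate 2 or without HGF replicate 3 (0.42 each). PRKAR1A, HGF against Control, reversed to -0.0086 with the mean of its probe sets. Of the alternatives for named pathway genes, 2734 kept their side of the threshold, 68 lost the call and 14 gained one. The 2734 can include changes of sign in differences called in neither fit. Among the 14, PRKAR1A for HGF + PD against Control changed sign, from 0.048 to -0.16 with the mean of its probe sets. The cause was not tested.

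Same-numbered arrays of different groups did not deviate together in a steady way. Their correlations ran from -0.25 to 0.41 (median 0.054), and 8 of 21 pairs were over 0.1. The median for pairs with different numbers was 0.0098. The numbers were not used as pairs in the main fit. With the replicate block, 13924 probe sets were called for HGF against Control (13839 without it), and 47 pathway genes in both fits. Leaving out 1 array gave 12969 to 13374 probe sets, and 4404 to 5249 for HGF + UO against Control (5550 with all arrays).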
